A study of Mus musculus with 12 samples.

Results

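The 10 genes Kit, Cd34, Flt3, Csf1r, Csf2ra, Csf2rb, Csf3r, Il3ra, Il6ra and Fcgr3 encode cytokine receptors and surface proteins by which early myeloid progenitors are recognised. They were taken by symbol from the 37583 genes of the deposited count files, and all 10 passed the filter on low counts that 11819 genes passed. RNA was sequenced from 12 single-cell-derived clones of conditionally immortalized granulocyte-monocyte progenitors (GMPs). They descend from fetal livers of C57BL/6 mice at embryonic day 15.5, and the groups were 6 clones lacking Tafazzin (Taz), with titles 3G, 3H, 3I, 4J, 4K and 4L, and 6 wild-type clones, with titles 1A, 1B and 1C or 2D, 2E and 2F. Both genotypes carried a retroviral ER-Hoxb8, a transcription factor that holds progenitors immature while estradiol is present, and both grew with 0.5 µM estradiol and the equivalent of about 50 ng/ml of stem cell factor. Tafazzin is an enzyme that remodels the mitochondrial lipid cardiolipin. Neither the meaning of the number before a clone's letter nor the embryo of origin is given, so p-values over 12 clones may be too small. The number and the genotype cannot be told apart, as numbers 3 and 4 occur in knockout and 1 and 2 in wild type.

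Hematopoietic cytokine receptors pass on signals for survival, division and lineage choice. Kit, Flt3 and Csf1r are receptor tyrosine kinases that bind stem cell factor, FLT3 ligand and, for Csf1r, CSF1 or IL-34. Csf2ra and Il3ra are the ligand-binding alpha chains for GM-CSF and IL-3, which pair with the common beta chain Csf2rb, and Csf3r (G-CSF) and Il6ra (IL-6) belong to another branch of the cytokine receptors. Cd34 is a sialomucin of stem and progenitor cells, and Fcgr3 is an activating receptor for IgG. Mouse GMPs are commonly sorted as cells with Kit, Cd34 and Fc gamma receptors on their surface and without the stem cell antigen Ly6a or the IL-7 receptor.

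Promoter sequences are shown for Flt3, Il3ra, Csf2ra and Il6ra, since these 4 receptors had a large spread between clones. Flt3, Csf2ra and Il6ra also moved with or against each other. Each run is the 250 bases before the RefSeq transcription start on build GRCm38.p6, read 5′ to 3′ on the gene's strand, with matches to 4 motifs in capitals. The motifs were the PU.1 core AGGAAG, the C/EBP core TTGCNNAA, the RUNX core TGTGGT and the GATA core AGATAA, searched on both strands. The Flt3 window was chr5:147400490-147400739 (minus strand), that of Il3ra chr14:14346245-14346494 (plus strand), that of Csf2ra chr19:61228419-61228668 (minus strand) and that of Il6ra chr3:89913197-89913446 (minus strand).
Flt3 promoter: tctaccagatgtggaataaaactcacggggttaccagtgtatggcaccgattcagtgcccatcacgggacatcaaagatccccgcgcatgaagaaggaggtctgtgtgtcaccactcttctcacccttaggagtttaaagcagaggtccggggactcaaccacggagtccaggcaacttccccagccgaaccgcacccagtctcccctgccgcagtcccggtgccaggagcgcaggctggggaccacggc
Il3ra promoter: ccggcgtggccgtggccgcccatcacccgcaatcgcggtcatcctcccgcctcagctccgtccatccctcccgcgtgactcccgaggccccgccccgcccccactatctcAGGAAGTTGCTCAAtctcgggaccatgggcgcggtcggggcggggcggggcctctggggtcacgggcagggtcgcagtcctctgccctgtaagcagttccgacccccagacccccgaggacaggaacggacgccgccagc
Csf2ra promoter: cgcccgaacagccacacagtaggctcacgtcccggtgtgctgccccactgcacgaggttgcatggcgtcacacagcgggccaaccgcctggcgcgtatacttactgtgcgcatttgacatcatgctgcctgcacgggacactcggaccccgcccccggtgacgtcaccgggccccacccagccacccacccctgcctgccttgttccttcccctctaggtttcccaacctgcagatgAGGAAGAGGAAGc
Il6ra promoter: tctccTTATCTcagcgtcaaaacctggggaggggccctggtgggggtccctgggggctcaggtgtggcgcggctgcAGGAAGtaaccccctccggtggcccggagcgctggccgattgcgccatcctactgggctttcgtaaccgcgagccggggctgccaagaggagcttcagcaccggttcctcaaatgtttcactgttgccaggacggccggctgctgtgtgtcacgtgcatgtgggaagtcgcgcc
The Flt3 window held 0 matches, and its letters say nothing of other windows. The Il3ra window held a PU.1 core directly followed by a C/EBP core, the Csf2ra window held 2 PU.1 cores side by side, and the Il6ra window held a GATA core on the opposite strand and a PU.1 core. No matches overlapped in these 4 windows. Among 32851 promoter windows of the same length, 29.5% held the PU.1 core, 9.56% the C/EBP core, 14% the RUNX core and 9.99% the GATA core, so a match is a frequent event and only a description. A window was found for 8 of the 10 genes.

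The sorting markers of GMPs checked the label. Kit had between 516 and 863 CPM (counts scaled to library size, with TMM factors) in the 12 clones, Cd34 between 1202 and 2200 CPM and Fcgr3 between 85.3 and 186 CPM. Ly6a had between 0.433 and 1.55 CPM and Il7r between 0.127 and 2.91 CPM, low in every clone. Mpo, the myeloid peroxidase of granule-forming progenitors, averaged 9811 ± 3086 CPM in knockout clones and 9998 ± 2518 CPM in wild-type clones (SD, n = 6 each). The targeted gene Taz averaged 3.35 ± 0.685 CPM in knockout clones and 39.2 ± 2.58 CPM in wild-type clones. Reads in genes numbered from 18970252 to 23658158 in knockout libraries and from 21966954 to 27431544 in wild-type libraries, and 3 counts correspond to 0.109 to 0.158 CPM, counting error only.

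Levels per kilobase of exon put the surface markers and the stem cell factor receptor first. Cd34 averaged 248 ± 48.7 CPM per kilobase in knockout clones and 235 ± 56.8 in wild-type clones (SD, n = 6 each). Kit followed at 84.5 ± 8.84 CPM per kilobase in knockout clones and 75.4 ± 11 in wild-type clones, and Fcgr3 at 80.3 ± 15 in knockout clones and 66.5 ± 13.1 in wild-type clones. Kit and Fcgr3 lay within their spread of each other. Below them came Csf2rb, Csf3r, Flt3 and Il3ra, then Csf2ra, then Il6ra and, lowest, Csf1r. On this scale Csf2rb averaged 35.4 ± 3.09 CPM per kilobase in knockout clones and 32 ± 4.39 in wild-type clones, while its alpha-chain partner Csf2ra averaged 4.51 ± 1.27 in knockout clones and 5.06 ± 2.57 in wild-type clones. Csf1r, the CSF1 receptor of the monocyte lineage, averaged 0.571 ± 0.971 CPM per kilobase in knockout clones and 0.286 ± 0.203 in wild-type clones. The order of Csf3r and Flt3, which overlapped in spread, turned when the length of the longest transcript was used in place of all exons.

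**Figure D1:**
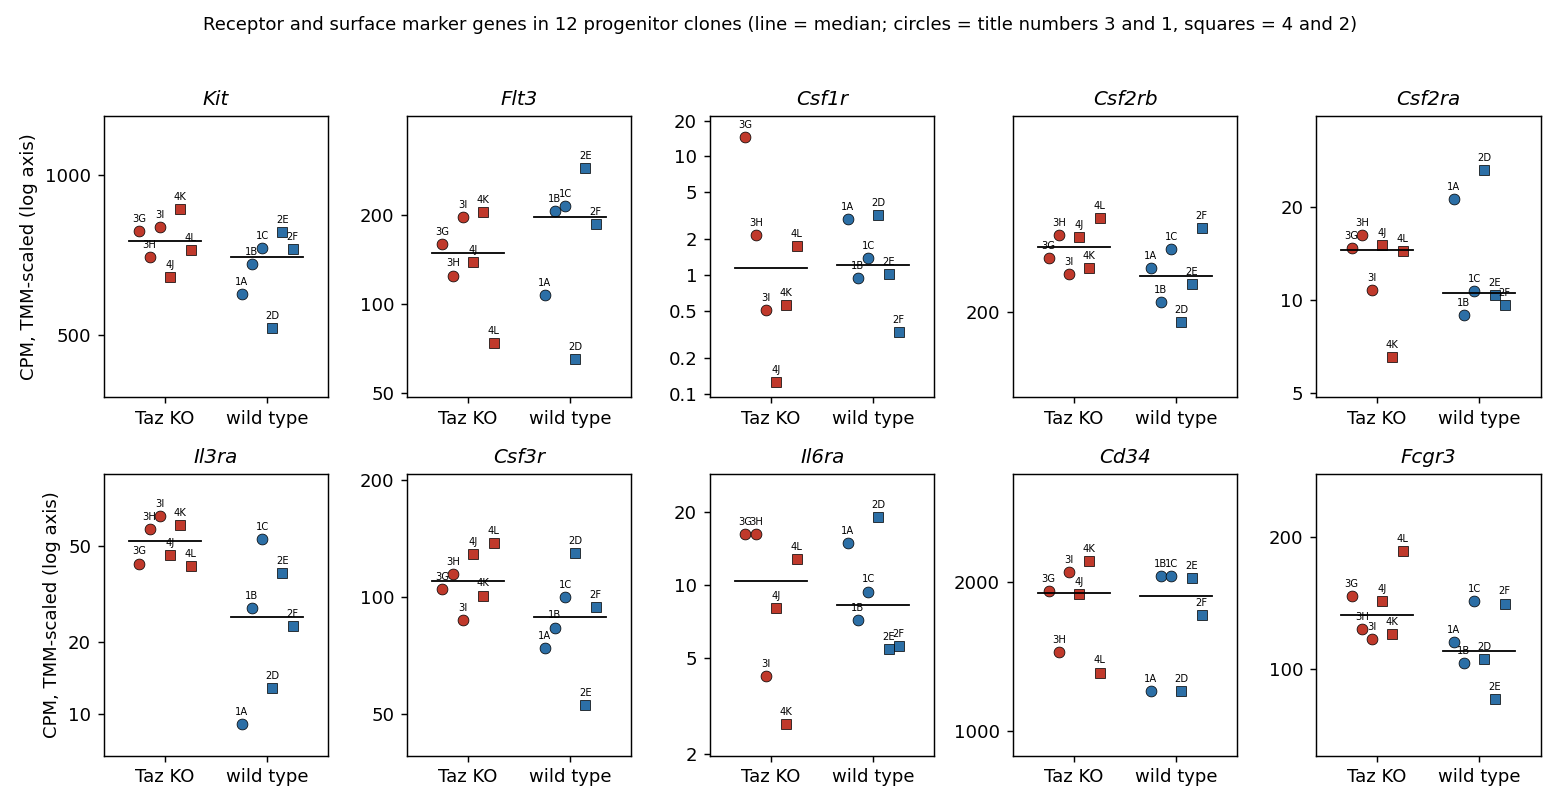
Level of each of the 10 genes in CPM (TMM-scaled, log axis) in 6 Taz knockout clones (red, left) and 6 wild-type clones (blue, right). Each point is 1 clone, black lines are medians, and circles and squares mark the 2 title numbers within a genotype; the genotypes overlap in all 10 panels.

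The comparison of knockout with wild-type clones asked whether Tafazzin loss altered the receptor set by which these progenitors are defined. Of the 10 genes, 0 were called by edgeR's quasi-likelihood test at an adjusted p under 0.05, where 7.94% of 11819 genes were called (472 higher and 466 lower in knockout). DESeq2 called 0 of the 10 and 13.7% of its tested genes. At an unadjusted p under 0.05 edgeR had 1 of the 10, Il3ra, and 23.7% of all genes. The genotypes were separated without overlap in 0 of the 10 genes and in 5.38% of all genes. The log2 fold change (knockout over wild type) was positive in 7 and negative in 3 of the 10, with a median of 0.16 beside -0.007 over all genes, and the median of its size was 0.21 beside 0.11. A p that misses the threshold does not show that levels were equal, and the 95% intervals below give what each comparison leaves possible. In bulk RNA, fewer cells of a type and less RNA per cell cannot be told apart.

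Il3ra, the alpha chain of the IL-3 receptor, came closest to a difference. It had 41.2 CPM at the lowest, 52.6 at the median and 66.5 at the highest in knockout clones, against 9.03, 25.3 and 53.4 CPM in wild-type clones. Every knockout clone was above 5 of the 6 wild-type clones, and wild-type clone 1C, at 53.4 CPM, lay inside the knockout range. The log2 fold change was 0.95 (SE 0.365, 95% interval 0.15 to 1.74), with an unadjusted p of 0.0237 and an adjusted p = 0.139 by edgeR (DESeq2 adjusted p = 0.0537). An exact two-sided permutation test of mean log2 CPM over 924 assignments gave p = 0.0152, unadjusted, where the smallest it can give is 0.00216. The 4 pairs of title numbers, which share clones, gave log2 fold changes of 0.90 for number 3 over 1, 1.17 for 3 over 2, 0.73 for 4 over 1 and 1.00 for 4 over 2. Wild-type clones 1A (9.03 CPM) and 2D (12.8 CPM) had the lowest levels, and without them the log2 fold change was 0.57 (adjusted p = 0.173). Leaving out the lowest wild-type clones can only lower this fold, and they were chosen after seeing the data. With counts summed over the clones of a title number, the difference passed the test (log2 fold change 0.98, adjusted p = 0.0394). The mast cell and basophil marker sum, led by Cpa3 (63% of it), ran from 2884 to 5718 CPM in knockout clones and from 1698 to 5139 CPM in wild-type clones and was also lowest in 1A and 2D, and its part in the Il3ra values was not tested.

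Receptor tyrosine kinases did not pass the test in any case. Kit ran from 643 to 863 CPM in knockout clones, with a median of 754, against 516 to 782 CPM and a median of 703 in wild-type clones. Its log2 fold change of 0.16 had a narrow 95% interval of -0.06 to 0.38 (adjusted p = 0.363 by edgeR), so that a fold above 1.3 or below 0.96 lay outside it. Flt3, the receptor of lymphoid-primed and dendritic precursors as well as early myeloid cells, ran from 73.7 (median 150) to 205 CPM in knockout clones, against 65.3 (median 197) to 289 CPM in wild-type clones. The log2 fold change of Flt3 was -0.25 with an interval of -0.98 to 0.48 (adjusted p = 0.706 by edgeR). Low clones occurred on both sides, 4L at 73.7 CPM in knockout and 2D at 65.3 CPM and 1A at 107 CPM in wild type.

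Csf1r had few counts in most clones and more in 1. Knockout clone 3G had 14.6 CPM (278 counts), and the other 5 knockout clones had between 0.127 CPM (3 counts, in 4J) and 2.19 CPM, against 0.332 to 3.21 CPM in wild-type clones. The medians were 1.16 CPM in knockout and 1.22 CPM in wild type. The fitted log2 fold change was 0.99 (interval -1.08 to 3.06, adjusted p = 0.577 by edgeR) and -0.69 without 3G (adjusted p = 0.632). The sum of monocyte and macrophage markers, of which Ccr2 made up 55.8%, was 1690 CPM in 3G, within the 1169 to 2036 CPM of the knockout clones and the 848 to 2341 CPM of the wild-type clones, and its part in the Csf1r value was not tested. Of the distinct 50-base stretches in Csf1r transcripts, 14.3% also occur in those of Hmgxb3, which overlaps it on the opposite strand, and reads were counted without strand. Hmgxb3 had 61.1 to 68.5 CPM in knockout clones and 58 to 64.2 CPM in wild-type clones.

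The common beta chain family held a stable shared chain and variable alpha chains. Csf2rb ran from 232 to 290 CPM in knockout clones (median 258) and from 192 to 279 CPM in wild-type clones (median 230), with a log2 fold change of 0.15 (interval -0.05 to 0.34, adjusted p = 0.346 by edgeR). Csf2ra ran from 6.51 to 16.3 CPM (median 14.5) in knockout clones, against 8.91 to 26.4 CPM (median 10.6) in wild-type clones. The highest 2 values of Csf2ra were both wild-type, 26.4 CPM in 2D and 21.2 CPM in 1A, and the lowest was 6.51 CPM in knockout clone 4K. Its log2 fold change was -0.16 (interval -0.85 to 0.52, adjusted p = 0.804 by edgeR) and became 0.39 without 1A and 2D (adjusted p = 0.327). Leaving out the highest wild-type clones can only raise this value. Csf2rb2, the mouse beta chain particular to IL-3 that arose as a near copy of Csf2rb, ran from 33.8 to 60.4 CPM in knockout clones and from 10.3 to 81.9 CPM in wild-type clones (adjusted p = 0.704 by edgeR). The pair shares 12.3% of the 50-base stretches of Csf2rb, so reads could have been lost or moved between them.

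Csf3r, the G-CSF receptor of the neutrophil lineage, ran from 87.2 to 138 CPM in knockout clones (median 110), against 52.9 to 130 CPM in wild-type clones (median 89.1). The log2 fold change was 0.34 (interval -0.07 to 0.74, adjusted p = 0.302 by edgeR). Low values of 52.9 CPM in 2E and 73.9 CPM in 1A and a high value of 130 CPM in 2D spread the wild-type clones over the knockout range. Il6ra, the ligand-binding chain for IL-6, ran from 2.67 CPM in 4K to 16.2 CPM in 3G and 3H among knockout clones (median 10.4), against 5.43 CPM in 2E to 19.1 CPM in 2D among wild-type clones (median 8.3). Its log2 fold change was -0.03 with a wide interval of -1.06 to 0.99 (adjusted p = 0.979 by edgeR), which holds folds from 0.48 to 1.99.

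The surface markers Cd34 and Fcgr3 also overlapped between genotypes. Cd34 ran from 1311 to 2200 CPM in knockout clones (median 1899), against 1202 to 2058 CPM in wild-type clones (median 1875), with a log2 fold change of 0.08 (interval -0.31 to 0.47, adjusted p = 0.835 by edgeR). Clones 4L (1311 CPM) and 3H (1445 CPM) in knockout and 1A (1202 CPM) and 2D (1205 CPM) in wild type were low, and the other 8 lay between 1714 and 2200 CPM. Fcgr3 ran from 117 to 186 CPM in knockout clones (median 133), against 85.3 to 143 CPM in wild-type clones (median 110). The log2 fold change of Fcgr3 was 0.27 (interval -0.05 to 0.59, adjusted p = 0.285 by edgeR). Fcgr2b, the inhibitory IgG receptor that shares 9.58% of the 50-base stretches of Fcgr3, ran from 92.8 to 162 CPM in knockout clones and from 95.2 to 133 CPM in wild-type clones (adjusted p = 0.429 by edgeR). Fcgr4, an IgG receptor of mature myeloid cells, did not exceed 3.29 CPM in any clone (adjusted p = 0.984 by edgeR).

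**Figure D2:**
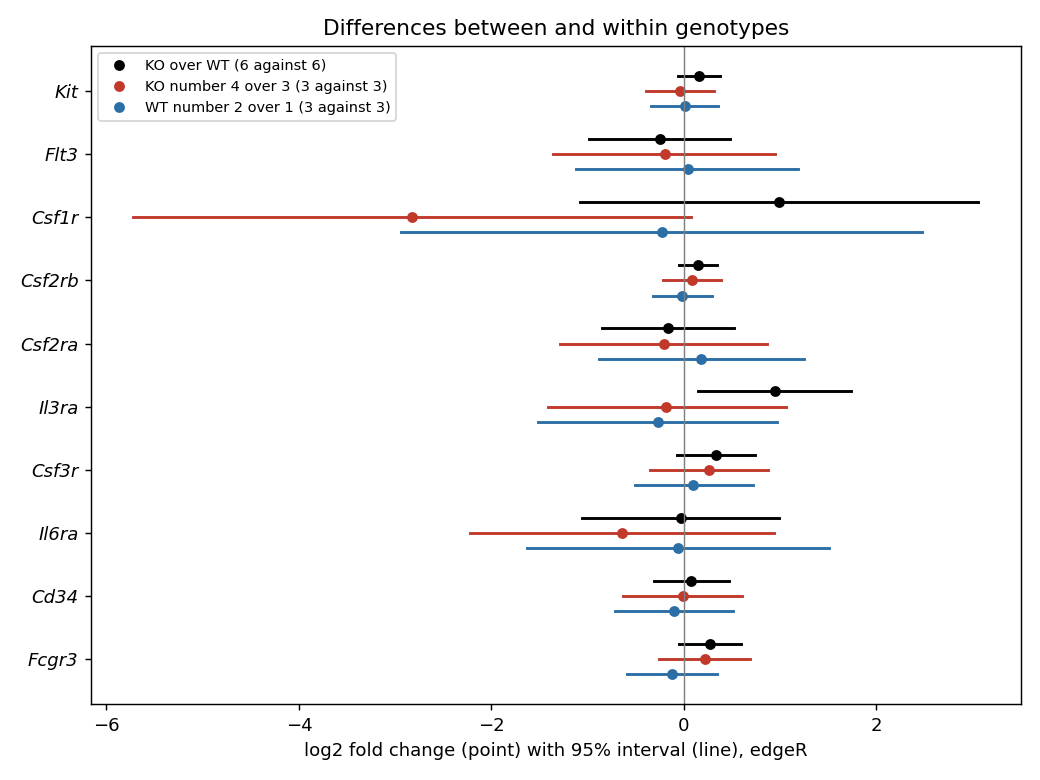
Log2 fold change with its 95% interval from edgeR for each of the 10 genes, for knockout over wild type (black), knockout number 4 over 3 (red) and wild-type number 2 over 1 (blue). The knockout interval leaves out 0 for Il3ra alone, at 0.95 (0.15 to 1.74), before adjustment over all genes.

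Clones of 1 genotype were also compared by the number in their titles. Of the 10 genes, 0 were called for knockout number 4 against 3 and 0 for wild-type number 2 against 1, and edgeR called 0% of all genes in both. DESeq2 called 0 of the 10 in both, where 0.0424% of all genes were called for number 4 against 3 and 0.108% for number 2 against 1. At an unadjusted p under 0.05 edgeR had 0 of the 10 in both, where it had 2.06% of all genes for number 4 against 3 and 3.52% for number 2 against 1. The largest of these differences was that of Csf1r between knockout numbers 4 and 3 (log2 fold change -2.82, unadjusted p of 0.0545), and it was -0.72 without clone 3G. For the 10 genes, no difference by title number was detectable with 3 clones a side, and the intervals for Flt3, -1.36 to 0.95 for number 4 over 3 and -1.12 to 1.19 for number 2 over 1, hold differences above 2-fold.

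Most of the variation of these genes lay between clones of the same genotype. The SD of log2 CPM within genotype had a median of 0.47 over the 10 genes, beside 0.15 over all tested genes. Csf1r had an SD of 1.68 (percentile 97.6 of all genes), Il6ra 0.92 (percentile 92.6), Il3ra 0.71 (percentile 89.3), Flt3 0.67 (percentile 88.5) and Csf2ra 0.58 (percentile 86.3). Counting error adds to this spread for a gene as low as Csf1r. Csf3r (0.35), Cd34 (0.34) and Fcgr3 (0.27) were intermediate. Kit, with an SD of 0.19, and Csf2rb, with 0.17, lay near the middle of all genes, at percentiles 58.4 and 53.6. The receptor for the growth factor in the medium and the shared beta chain were the most even of the 10, and the ratio of highest to lowest clone was 1.67 for Kit and 1.51 for Csf2rb, against 4.42 for Flt3, 4.05 for Csf2ra, 7.15 for Il6ra and 7.36 for Il3ra.

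The clones were ordered in a like manner by several of these genes, across genotypes. Flt3 followed Cd34, with Pearson's r = 0.89 and Spearman's rho = 0.83 over the 12 clones, and r was 0.94 in knockout, 0.93 in wild type and 0.86 without the 2 clones farthest from the median. Il6ra followed Csf2ra (r = 0.87, rho = 0.83), with r = 0.91 in knockout, 0.93 in wild type and 0.77 without the 2 farthest clones. These pairs ran against each other, as Flt3 was low where Csf2ra was high (r = -0.80, rho = -0.80; r = -0.62 in knockout, -0.93 in wild type, -0.79 without 2 clones). Kit likewise ran against Csf2ra (r = -0.81, rho = -0.64), less so without the 2 farthest clones, 1A and 2D (r = -0.53). Fcgr3 followed Csf2rb (r = 0.79, rho = 0.83; r = 0.74 in knockout, 0.73 in wild type, 0.75 without 2 clones). Of the 45 pairs of the 10 genes, 13 had r of at least 0.6 in size and of the same sign in both genotypes, 5 positive and 8 negative. Some leaned on few clones, as Il3ra with Il6ra had r = -0.45 over the 12 clones and -0.07 without 1A and 2D. The share among pairs of other genes was not taken. All these correlations are descriptions over clones of a few lines that share culture, library preparation and scaling, and no test was made of them.

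**Figure D3:**
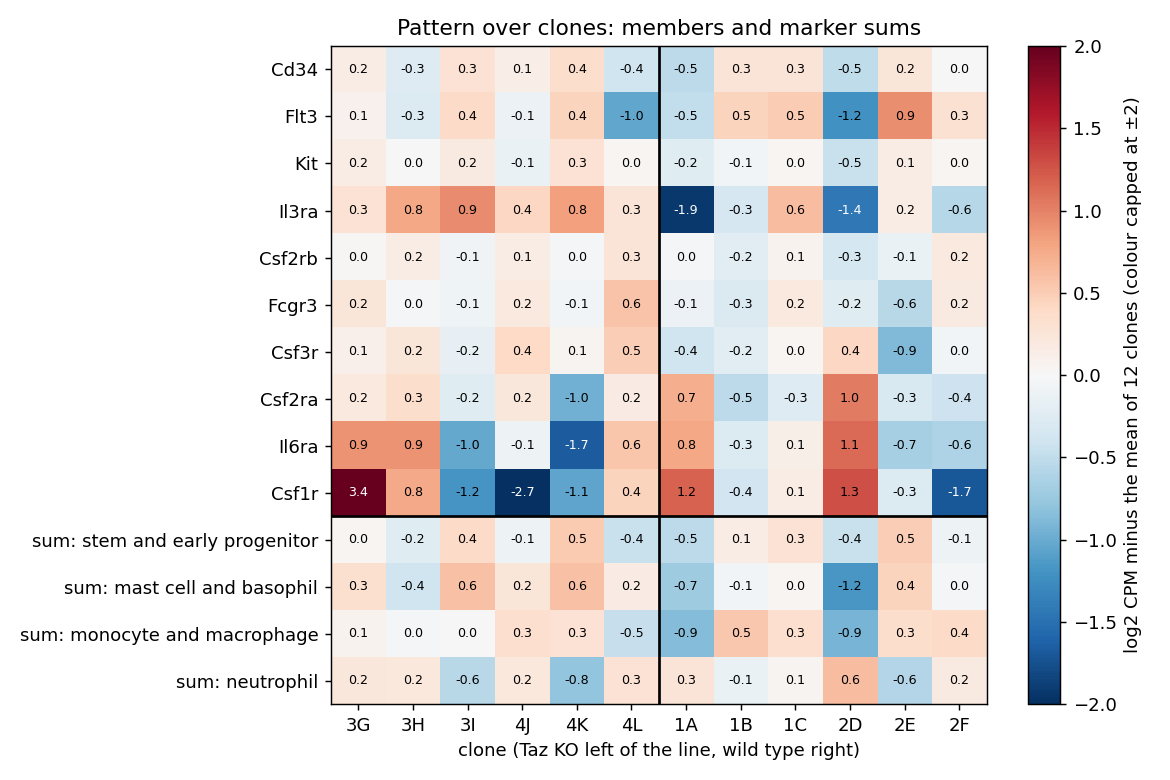
Log2 CPM of each of the 10 genes and of 4 marker sums, as difference from the mean of the 12 clones, with knockout clones left of the line and wild-type clones right of it. In wild-type clones 1A and 2D, Cd34, Flt3, Kit and Il3ra are low while Csf2ra, Il6ra and Csf1r are high, and knockout clone 4K shows the opposite for Csf2ra (-1.0) and Il6ra (-1.7).

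Marker sums of some other cell types varied with several of these genes. The neutrophil sum of 16 markers, of which Mpo made up 69.5%, ran from 7955 (median 15906) to 16727 CPM in knockout clones and from 9145 (median 14931) to 21050 CPM in wild-type clones. It was lowest in 4K, 2E and 3I and highest in 2D, and went with Il6ra (r = 0.88, rho = 0.85) and Csf2ra (r = 0.80, rho = 0.81) and against Flt3 (r = -0.76, rho = -0.89), Kit (r = -0.77, rho = -0.69) and Cd34 (r = -0.75, rho = -0.87). The sum is mostly Mpo, and the 12 tested neutrophil markers had a median log2 fold change of -1.47, beside -0.007 over all genes. Elane, neutrophil elastase, averaged 56 ± 52.6 CPM in knockout clones and 231 ± 321 CPM in wild-type clones (SD, n = 6 each; adjusted p = 0.263 by edgeR). Of these 12, 1 was called between genotypes, Cxcr2, and none of the 16 was at 0 in all clones. The sum of stem cell and early multipotent progenitor markers went with Cd34 (r = 0.93, rho = 0.94) and Flt3 (r = 0.89, rho = 0.87), at 479 to 937 CPM in knockout clones and 453 to 921 CPM in wild-type clones, while Mecom, Hoxa9 and Fgd5 had at most 3 counts in any clone. The sum of mast cell and basophil markers went with Kit (r = 0.91, rho = 0.86) and Il3ra (r = 0.78, rho = 0.66), and its Fcer1a and Mcpt1 had at most 3 counts in any clone. The eosinophil sum, of which Siglecf made up 71.8%, went against Il3ra (r = -0.87, rho = -0.64) and Kit (r = -0.85, rho = -0.66). The megakaryocyte and platelet sum went with Flt3 (r = 0.69, rho = 0.82) and against Csf2ra (r = -0.70, rho = -0.84). The monocyte and macrophage sum, of which Ccr2 made up 55.8%, went with Cd34 (r = 0.88, rho = 0.61) and Flt3 (r = 0.85, rho = 0.82). It went against Csf2ra (r = -0.82, rho = -0.79) and Csf1r (r = -0.5, rho = -0.62). Not all markers in it moved alike. Ly6c2 had 2.67 CPM in 4K and 4.8 CPM in 2E, where the sum was 1983 and 2057 CPM. In 4L, 1A and 2D Ly6c2 had 234, 179 and 139 CPM, where the sum was 1169, 883 and 848 CPM. Lymphoid markers, low throughout at 23.7 to 81.3 CPM in knockout clones and 82.2 to 155 CPM in wild-type clones, went against Fcgr3 (r = -0.81, rho = -0.75) and Csf2rb (r = -0.76, rho = -0.75). All knockout clones lay below all wild-type clones in this sum, so these r also hold the difference between genotypes. The lymphoid sum did not follow the order of the clones by Cd34 (r = 0.35, rho = 0.19) or Il6ra (r = -0.29, rho = -0.20). Called between genotypes by edgeR were 0 of 8 tested stem cell, 0 of 10 mast cell and 0 of 10 monocyte markers (7.94% of all genes). It also called 0 of 3 eosinophil, 1 of 7 megakaryocyte and platelet and 2 of 9 lymphoid markers. In this order of lists, an unadjusted p under 0.05 was found for 2, 3, 0, 1, 2 and 4 (23.7% of all genes). DESeq2 called 0, 0, 0, 0, 2 and 2 (13.7% of all genes). The 9 tested lymphoid markers had a median log2 fold change of -1.30, beside -0.007 over all genes. The part of these cell types in the receptor values was not tested.

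**Figure D4:**
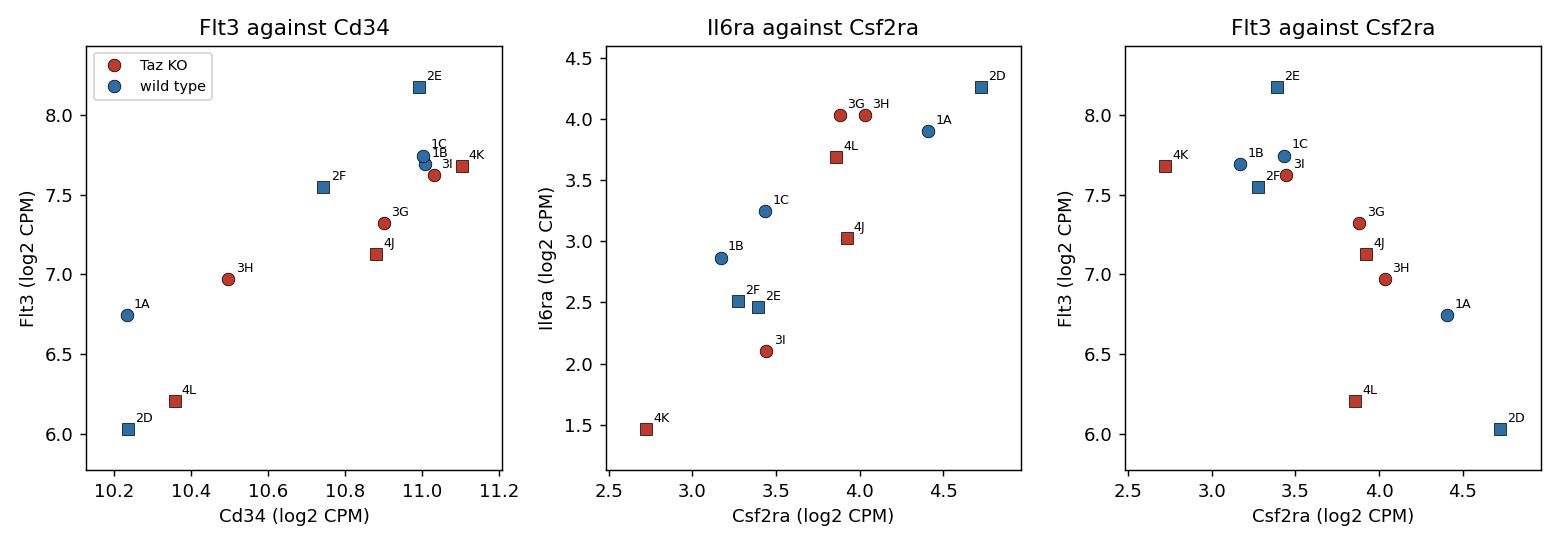
Log2 CPM of Flt3 against Cd34, of Il6ra against Csf2ra and of Flt3 against Csf2ra, with 1 point a clone (red knockout, blue wild type; circles title numbers 3 and 1, squares 4 and 2). Clones of both genotypes are intermixed in each panel, and 4L, 2D and 1A have the lowest Flt3 levels (65.3 to 107 CPM).

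By likeness over the 12 clones among 8491 genes of sufficient level, the 2 closest genes to each of the 10 were outside the cytokine receptors. The r below are the highest of a search over many genes with few clones, so high values can arise from the search alone. Siae and Rgs8 were closest to Flt3 (r = 0.97 each), Tsg101 (0.97) and Osbpl5 (0.96) to Cd34, and Rsbn1l (0.97) and Mfge8 (0.95) to Kit. Pcid2 (0.98) and Mrpl35 (0.96) were closest to Csf2ra, Rcn1 (0.96) and Nrip1 (0.95) to Il3ra, and Rab7b (0.95) and Tnfaip2 (0.94) to Il6ra. Atp10d was the closest to both Csf2rb and Fcgr3 (r = 0.86 each). Csf3r had Tmem147 (0.88) and Pim1 (0.87), and Csf1r had Ppp1r2 (0.82) and Osbpl7 (0.80). By Spearman's rho in place of Pearson's r, with ties given the same place, Siae remained among the 2 closest to Flt3, Pcid2 to Csf2ra, Atp10d to Csf2rb and Stx16 to Fcgr3. The others fell further, with Rsbn1l at place 78 for Kit and Osbpl5 at place 48 for Cd34.

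Ligands of these receptors were mostly at or near 0 counts in the clones. Kitl had at most 0.158 CPM in any knockout clone and 0.0738 CPM in any wild-type clone, and Csf2, Csf3 and Il34 were at or below 0.145 CPM in every clone. Il3 and Il5 had 0 counts, which allows up to 0.158 CPM per clone for counting error only. Csf1 and Il6, the 2 tested, were called neither by edgeR nor by DESeq2 and had no unadjusted p under 0.05. Csf1 averaged 16.5 ± 2.61 CPM in knockout clones and 12.3 ± 4.32 CPM in wild-type clones (SD, n = 6 each).

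Of 199 related genes in 10 lists (other receptors, ligands, transducers, inhibitors, adaptors, response genes, regulators, Fc receptors, other surface markers and shedding genes), 168 were tested and 11 were called, 7 higher and 4 lower in knockout, or 6.55% beside 7.94% of all genes. DESeq2 called 25 of them, beside 13.7% of all genes. Of 34 other cytokine receptors tested, edgeR called 0, with 6 at an unadjusted p under 0.05 (23.7% of all genes), and DESeq2 called 4 (13.7% of all genes). With counts summed by title number edgeR called 3 of these receptors and 274 of all genes. Without clone 2E it also called 3, and 1031 of all genes. Of 4 other Fc receptors, edgeR called 0, with 0 at an unadjusted p under 0.05, and DESeq2 called 0. Adjusted p of the 11 genes ran from 0.00148 to 0.0492 by edgeR, and folds of the inhibitors were small. Of 23 feedback inhibitors and phosphatases, Socs4 and Spred2 rose (1.11-fold and 1.14-fold) and Ptpn6, the SHP-1 phosphatase that restrains Kit and other receptors, and Pias1 fell (0.815-fold and 0.905-fold). Ptpn6 averaged 190 ± 16.5 CPM in knockout clones and 233 ± 19.9 CPM in wild-type clones (SD, n = 6 each).

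The largest of the 7 rises were those of Fyn and Bcl6. Fyn, a Src-family kinase, ran from 85.1 to 106 CPM (median 89.4) in knockout clones, against 43.8 to 63.2 CPM (median 61.6) in wild-type clones, without overlap. It was 1.57-fold higher (log2 fold change 0.65, SE 0.088, adjusted p = 0.00148 by edgeR). Bcl6, a transcriptional repressor listed with STAT5 and growth factor response genes, ran from 5.55 to 7.13 CPM (median 6.49) in knockout clones, against 1.45 to 4.58 CPM (median 3.29) in wild-type clones (log2 fold change 1.00, SE 0.222, adjusted p = 0.0185 by edgeR). The adaptor Gab2 was 1.19-fold higher, at 86.4 ± 6.49 CPM in knockout clones and 72.7 ± 7.07 CPM in wild-type clones. Among regulators of the receptor genes Pbx2 was 0.776-fold in knockout, and among the shedding genes Rhbdf2, a partner of the protease that releases receptors from the surface, was 1.31-fold higher. Cxcr2, a chemokine receptor of maturing neutrophils, was the 1 call of 31 other surface markers, at 2.64 ± 1.41 CPM in knockout clones and 8.23 ± 3.73 CPM in wild-type clones (adjusted p = 0.0411 by edgeR). When each clone was left out in turn, Socs4, Fyn and Bcl6 passed in all 12 fits. With counts summed by title number Fyn passed (adjusted p = 0.0346 by edgeR), while Socs4 (adjusted p = 0.119) and Bcl6 (adjusted p = 0.0997) did not, and without a filter on low counts Socs4 did not (adjusted p = 0.0706). Spred2 passed when 2D, 2E or 4L was left out and in no other of the 12 fits, and Ptpn6 for 1A, 2D, 2E, 2F, 3G or 4J. Pias1, Pbx2 and Cxcr2 passed for 2E or 4L alone, Gab2 for 2E or 2F and Rhbdf2 for 2D or 4K.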

How the data were processed

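The authors deposited unnormalized read counts by Ensembl gene identifier, 1 file per clone. STAR, HTSeq, edgeR and the mm9 build are named, without versions, per the submitters' processing notes, and the deposited file names say that reads were counted without strand. The 5 HTSeq totals that name no gene were left out. On average 43.6% of HTSeq records were multi-mapped alignments. Symbols and exon lengths came from GENCODE M21, and promoters from RefSeq GRCm38.p6, builds later than mm9.

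Counts were tested with edgeR 4.0.16 (quasi-likelihood F-test, TMM, filterByExpr by genotype, R 4.3.3) on all 12 clones, with Benjamini-Hochberg adjustment over 11819 genes and a threshold of 0.05. DESeq2 1.42.0 was the alternative. The SE was the size of the log2 fold change over the square root of F, and log2 CPM used a prior count of 2. Title numbers were compared in a model with 4 groups. The tests were tried on simulated counts with known changes. Named genes were the 10 genes, Taz, near copies, genes called in related lists and the 2 genes most like each of the 10. Members and lists were chosen with earlier results of these data known. Flt3l and Hbb-b1 were not analysed here. A called gene of the related lists is not reported here by name.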

Additional observations from a re-analysis of the deposited data

Results flagged for a closer look

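Csf1r was 14.6 CPM in knockout clone 3G, against 0.127 to 2.19 CPM in the other 5 knockout clones. On the linear scale its gap to the next clone was 0.858 of the range of the 6 clones, above Dixon's 95% critical value for 6 values. In log2 CPM, 3G had 3.878 against -2.224 to 1.187 in the other 5 knockout clones, so the gap was a smaller part of the range. The flag is for the linear scale only. In all, 26 groups of 6 clones were examined in this way and 1 was singled out, where chance alone gives about 1 in 20.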

How the results depend on the processing

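Alternatives were DESeq2, other scaling, other filters on low counts, sums by title number, a model with 4 groups, and each clone left out in turn. Leaving out 1A and 2D, the wild-type clones with the lowest Flt3, was chosen after seeing the data. For genes that were extreme in these clones, the direction of the shift was fixed in advance. No paired analysis was possible because the genotypes share no title number (3 and 4 against 1 and 2). Of the 10 genes, 0 were called under every alternative except sums by title number, where 1 was called, Il3ra (log2 fold change 0.98), whose adjusted p over all alternatives ran from 0.0394 to 0.24. Over all genes 938 calls became 1613 by DESeq2, 551 without a filter, 274 with sums by title number and 570 to 1031 with 1 clone left out (608 without 1B, 602 without 3G, 570 without 3I). Between title numbers DESeq2 called 5 genes for number 4 over 3 and 11 for number 2 over 1, and with 1 clone left out edgeR called 0 to 6 for number 4 over 3 (6 without 4J). The 11 calls in related lists became 25 by DESeq2, 3 without a filter, 7 with sums by title number, 5 in the model with 4 groups and 3 to 14 with 1 clone left out. Only 3 calls were made without 1B, 3H or 3I.

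Directions of small differences turned, and the cause was not tested. Without 1A and 2D the log2 fold change, knockout over wild type, was -0.12 for Cd34, 0.39 for Csf2ra, 0.54 for Il6ra and 0.67 for Fcgr4. With 1 clone left out it ran from -0.01 to 0.16 for Cd34, -0.69 to 1.29 for Csf1r, -0.28 to 0.09 for Csf2ra, -0.22 to 0.24 for Il6ra and -0.26 to 0.22 for Fcgr4. In CPM in place of log2 CPM the exact permutation p of Csf1r was 0.827, with the difference of means turned in sign. For knockout number 4 over 3, leaving out 1 clone gave -0.16 to 0.06 for Kit, -0.19 to 0.17 for Cd34, -0.59 to 0.10 for Flt3 and -0.41 to 0.08 for Csf2ra. For wild-type number 2 over 1 the ranges were -0.11 to 0.17 for Kit, -0.32 to 0.08 for Cd34, -0.48 to 0.43 for Flt3, -1.37 to 0.37 for Csf1r, -0.45 to 0.66 for Csf2ra, -0.18 to 0.10 for Csf2rb, -0.22 to 0.39 for Csf3r, -0.73 to 0.44 for Il3ra, -0.93 to 0.28 for Il6ra and -0.34 to 0.04 for Fcgr3, and without 1A and 2D the values were 0.11 for Csf2rb and -0.32 for Csf3r. Depth limits genes with few counts, such as Csf1r with 3 counts in 4J and Fcgr4 with 2 counts in 4K.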
